A study of Mus musculus with 12 samples.

Results

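The 10 genes described here are transcription factors of naive and core pluripotency, chosen by name: *Klf2*, *Klf4*, *Klf5*, *Esrrb*, *Tfcp2l1*, *Nr0b1*, *Nanog*, *Zfp42*, *Pou5f1* and *Tbx3*. They are 10 of the 46517 genes counted in the series, and all 10 were among the 15673 genes that passed the filter of more than 1 CPM (a gene's counts relative to its library's total) in at least 1 library. The filter removed none of them, since the lowest value of any of these factors in any library was 3.85 CPM, for *Klf4* (CPM here and below are scaled by TMM, edgeR's normalization for library composition). RNA was sequenced from WT and *Meteor* KO cells of a mouse ESC line that carries EGFP at the start site of *Eomes* (EomesEGFP, strain background C57BL/6). Both genotypes were grown on mouse embryonic fibroblast feeders and were taken at day 0, as undifferentiated ESCs, and at day 3, as embryoid bodies formed in hanging drops for cardiac differentiation, with 3 replicates in each of the 4 groups. KO cells lack the *Meteor* enhancer, which lies near *Eomes* and is transcribed into a lncRNA, and came from picked clones. Whether the 3 KO samples of a day are 1 clone, and whether replicates are separate cultures, was not given in the sources used here, so p-values measure the spread between these samples only. If they are 1 clone, a trait of that clone cannot be told apart from an effect of the deletion. The study repeated findings in another clone, made separately, by flow cytometry and qRT-PCR.

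Naive pluripotency is the state of the early epiblast that mouse ESCs keep in the presence of LIF. It is held by a network of transcription factors that activate each other and themselves. *Pou5f1* (Oct4) and *Nanog* form its core together with *Sox2*, and are also made in the later, primed epiblast and at the start of gastrulation. *Klf2*, *Klf4*, *Klf5*, *Esrrb*, *Tfcp2l1*, *Nr0b1*, *Zfp42* (Rex1) and *Tbx3* mark or sustain the naive state and are switched off when cells leave it.

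Between 17455927 and 23910943 reads per library were counted on genes. The deleted locus was as labelled, since *2610509F24Rik*, an annotated transcript of the *Meteor* locus, had 52 to 107 counts in WT libraries at day 0 and 29 to 92 at day 3, and 0 in each of the 6 KO libraries. *Platr11*, also read for this check, had 30 to 112 counts in WT at day 0 and 11 to 53 at day 3. In KO it had 0 to 1 counts at day 0 and 0 at day 3. A library stood apart, the WT replicate 3 of day 3. It had 105 CPM of *Hand1*, a factor of lateral and extraembryonic mesoderm, against 1.68 and 1.25 CPM in the other WT libraries of that day. Many values given here that it moved past the threshold or by more than 1.5 times are also given without it. Not all are, so a value with no such note can still depend on this library. The log2 fold change of KO against WT for *Klf2* at day 3 was 0.15 with it and 0.28 without it. The difference between the days in the KO effect on *Esrrb* was 0.11 and 0.26, and the change of *Lin28a* over time in WT was 0.27 and 0.44. Day 3 embryoid bodies are mixtures of cells, and in bulk RNA fewer cells that express a gene and less of its RNA per cell cannot be told apart.

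Promoter sequence was taken from RefSeq (GRCm38.p6) for 8 of the 10 factors by gene symbol, as the 250 bases before each annotated start site. The 4 factors whose windows held a searched motif are shown, with the matched bases in capitals, so that the elements these genes do and do not share can be seen beside their values. The Nanog window is chr6:122707239-122707488 on the plus strand, and its capitals mark an Oct4-Sox2 composite element that begins 75 bases before the start site and a Klf motif that begins 10 bases before it. The Zfp42 window is chr8:43307010-43307259 on the minus strand, with an octamer and a Klf motif. The Tfcp2l1 window is chr1:118627695-118627944 on the plus strand, with 2 Klf motifs, and the Pou5f1 window is chr17:35505782-35506031 on the plus strand, with 1 Klf motif.
Nanog: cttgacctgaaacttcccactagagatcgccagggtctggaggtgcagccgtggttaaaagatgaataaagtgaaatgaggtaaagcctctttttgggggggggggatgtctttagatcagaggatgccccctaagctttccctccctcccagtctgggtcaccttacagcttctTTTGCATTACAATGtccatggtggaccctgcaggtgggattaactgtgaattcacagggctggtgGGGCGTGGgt
Zfp42: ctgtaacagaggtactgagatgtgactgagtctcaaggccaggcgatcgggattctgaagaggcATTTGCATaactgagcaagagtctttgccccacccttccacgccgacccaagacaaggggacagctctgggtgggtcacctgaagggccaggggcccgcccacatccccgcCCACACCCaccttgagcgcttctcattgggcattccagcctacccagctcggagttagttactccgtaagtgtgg
Tfcp2l1: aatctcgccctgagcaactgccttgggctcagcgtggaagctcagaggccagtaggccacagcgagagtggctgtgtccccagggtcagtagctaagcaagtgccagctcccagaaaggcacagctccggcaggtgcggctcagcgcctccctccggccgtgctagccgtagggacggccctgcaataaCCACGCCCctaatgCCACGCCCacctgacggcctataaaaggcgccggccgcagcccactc
Pou5f1: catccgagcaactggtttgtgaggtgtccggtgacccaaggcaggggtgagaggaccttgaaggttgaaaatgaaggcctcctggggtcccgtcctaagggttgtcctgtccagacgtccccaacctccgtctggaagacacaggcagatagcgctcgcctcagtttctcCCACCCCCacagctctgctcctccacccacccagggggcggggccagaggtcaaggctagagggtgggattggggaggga

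Motifs were searched on both strands in the 11 windows of the 8 factors. The composite element, TTTGCAT with 1 base of any kind and ACAATG after it, was in 0.00609% of the 32851 RefSeq promoter windows of the same length, and among the factors only in the overlapping pair of *Nanog* windows. That share is made up of this pair alone, so it gives no background apart from *Nanog*. The octamer, ATTTGCAT, was in 1.6% of all windows and among the factors only in that of *Zfp42*. The Klf motif, GGGNGTGG, was in 15.9% of all windows and in 5 of the 11 windows of the factors, which belong to 4 factors. The overlapping *Nanog* windows are counted separately among the 5, and of the *Pou5f1* windows only the one shown held the motif. The Esrrb motif AAGGTCA was in 4.08% of all windows, the Tfcp2l1 motif, CCAG on both sides of 6 bases of any kind, in 2.78% and the Stat3 motif TTCCNGGAA in 0.913%, and these were in no window of the factors.

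In WT ESCs the factors were expressed at unequal levels, compared here per length of the gene's merged exons. *Pou5f1* was highest, at 348 ± 42 CPM per kb (SD, n = 3), followed by *Zfp42* at 248 ± 50.3. *Klf2* (154 ± 29.1) and *Nanog* (151 ± 15.2) had overlapping libraries, as did *Klf4* (100 ± 21.1) and *Esrrb* (90.8 ± 16.8), and *Nr0b1* (55.7 ± 7.1) and *Tfcp2l1* (48.9 ± 1.47). *Klf5* (32.5 ± 1.61) and *Tbx3* (22.8 ± 2.16) were lowest. In KO ESCs *Pou5f1* (439 ± 23.9), *Zfp42* (291 ± 42.5) and *Nanog* (226 ± 31.2) led the order. *Klf5*, the ninth in WT, was the fourth in KO at 152 ± 7.51 CPM per kb, with libraries that overlapped those of *Klf2* (147 ± 14.1), the next in the order. Such ranks depend on the length used, since the merged exons of *Klf5* span 5201 bases and its longest annotated transcript 3352. At day 3 *Pou5f1* and *Nanog* were far above the rest, at 238 ± 77.3 and 121 ± 56.2 CPM per kb in WT and 309 ± 17.8 and 73.9 ± 5.62 in KO, and the third factor, *Zfp42*, was at 11.5 ± 2.88 in WT and 19.3 ± 2.84 in KO.

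**Figure D1:**
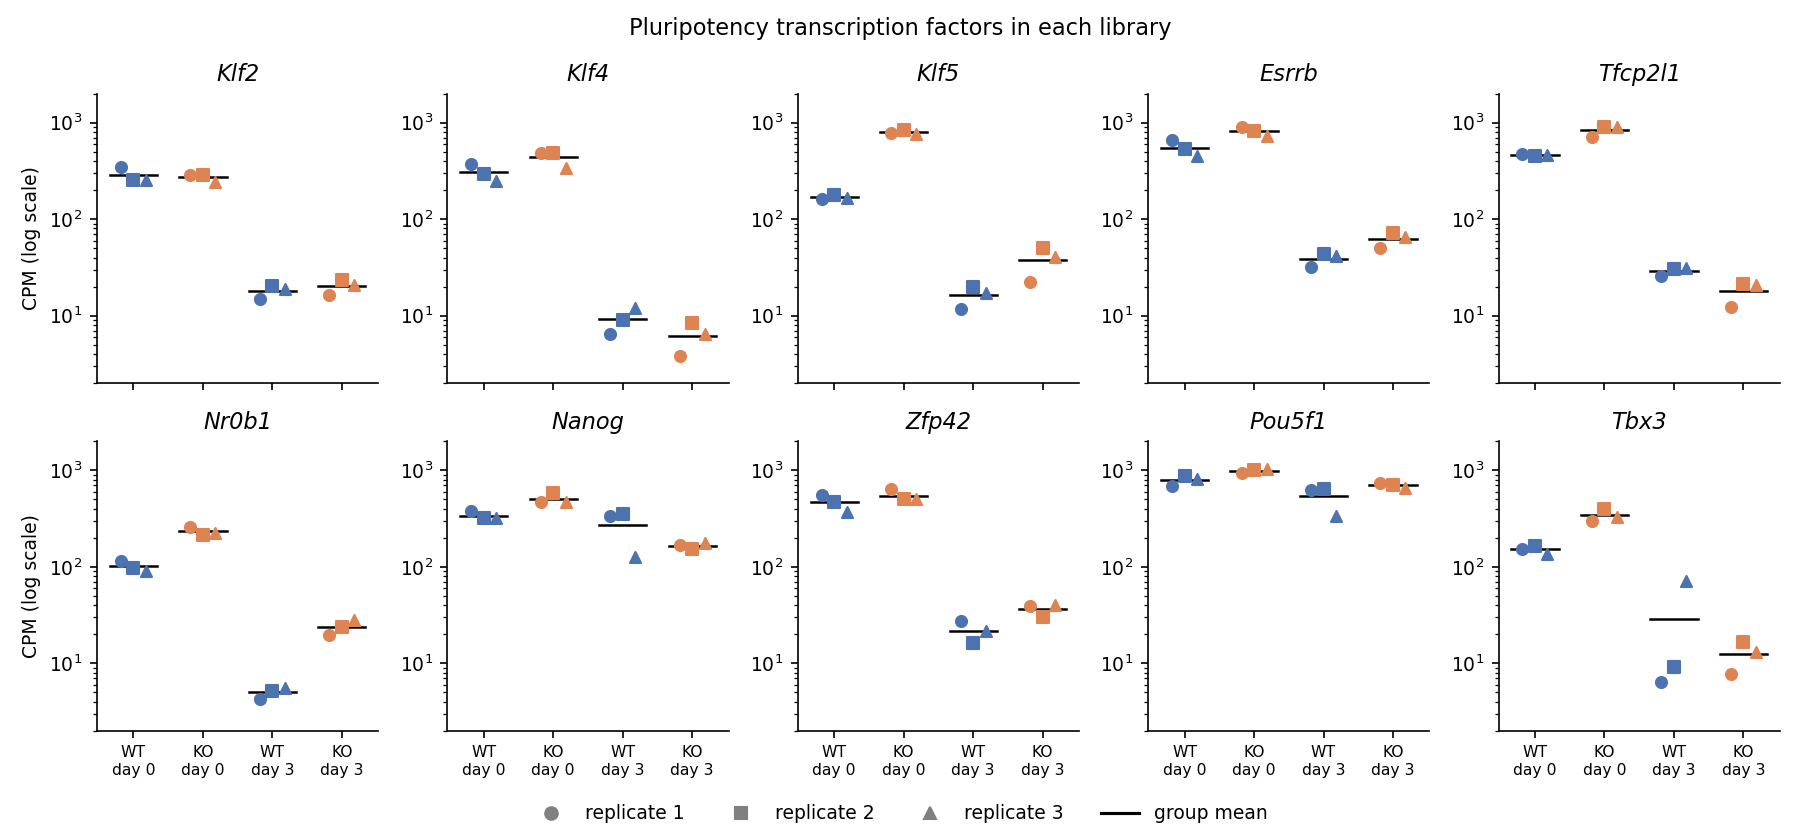
CPM of the 10 factors in each of the 12 libraries on a log axis, with 1 panel per gene, 1 marker shape per replicate number, WT in blue, KO in orange and a black line at each group mean. *Klf5* stands at 766 to 838 CPM in KO ESCs against 163 to 178 in WT, and the WT replicate 3 of day 3 departs from its group in *Nanog*, *Pou5f1* and *Tbx3*.

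The first question was whether loss of *Meteor* altered these factors in undifferentiated ESCs. At day 0, 4 of the 10 factors were higher in KO than in WT at an adjusted p below 0.05, namely *Klf5*, *Nr0b1*, *Tfcp2l1* and *Esrrb*. Of all tested genes 20.4% were called at this day, and 9.56% of all tested genes were called as higher. P-values are from the quasi-likelihood test of edgeR, adjusted over all tested genes by the Benjamini-Hochberg method, with all 12 libraries in 1 fit. That fit held a replicate block shared by both days, although equal replicate numbers paired libraries within a day only. Factors not called in it can be called with a block within each day, and such calls are given beside it. The log2 fold changes of the 10 factors had a median of 0.57, against -0.009 for all tested genes, and 9 of the 10 were above 0, with *Klf2* at -0.08. KO and WT libraries did not overlap for 7 of the 10, against 34.2% of all tested genes. When the replicate number was a block within each day, 6 of the 10 factors were called, with *Klf4* and *Tbx3* added, where 34.8% of all tested genes were called, and with only the 6 day 0 libraries in the fit 9 were called, all but *Klf2*, where 36.7% of all tested genes were called.

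At day 3 the effect was mixed. *Nr0b1*, *Klf5*, *Zfp42* and *Esrrb* were higher in KO and *Tfcp2l1* was lower, which is 5 of 10 against 30.9% of all tested genes (14.3% higher and 16.7% lower). The median log2 fold change of the 10 was 0.28, against -0.002 for all tested genes, and without WT replicate 3 of day 3 it was 0.5, against 0.041. Libraries of the genotypes did not overlap for 6 of the 10, against 43.8% of all tested genes. The KO effect itself differed between the days for 3 factors, *Tfcp2l1*, *Klf5* and *Nr0b1*, where 15.5% of all tested genes were called, 8.21% with a higher effect at day 3 and 7.34% with a lower one. A replicate block within each day gave a count of 6, with *Klf4*, *Nanog* and *Zfp42* added, and 31.2% of all tested genes were called in that fit. Without the WT replicate 3 of day 3, 7 of the 10 factors were called at day 0, all as higher in KO, and 7 at day 3, 5 as higher and 2 as lower. In that fit 22.6% of all tested genes were called at day 0 and 22.1% at day 3.

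**Figure D2:**
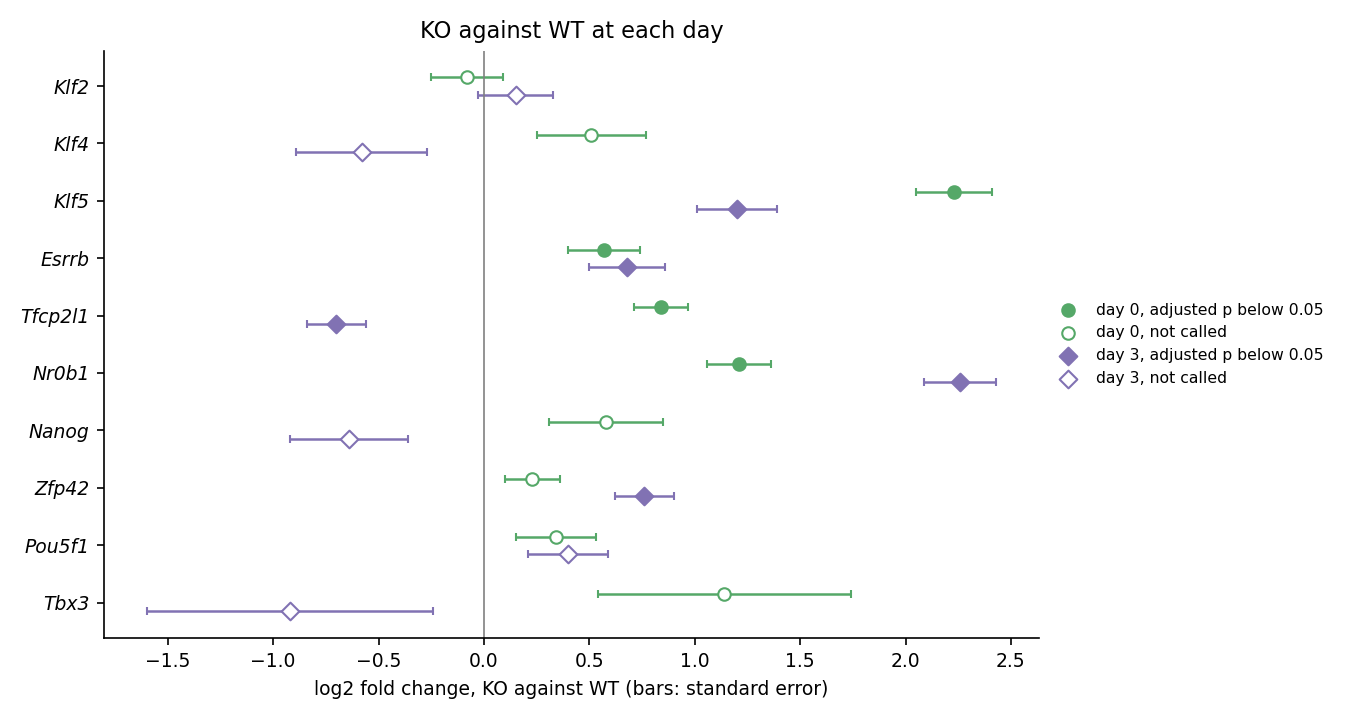
Log2 fold change of KO against WT for each factor at day 0 (circles) and day 3 (diamonds), with bars of 1 standard error and filled markers for an edgeR adjusted p below 0.05. *Klf5* is highest at day 0 (2.23) and *Nr0b1* at day 3 (2.26), while *Tfcp2l1* lies at 0.84 at day 0 and at -0.7 at day 3.

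Most of these genes fell as the cells differentiated, in both genotypes. From day 0 to day 3, 9 of the 10 factors fell in WT, all but *Nanog*, and 10 of 10 fell in KO. Of all tested genes 56.2% were called in WT, 25.5% as lower and 30.7% as higher, and 56.6% in KO, 27.2% as lower. The median log2 fold change of the factors was -3.9 in WT and -3.83 in KO, against 0.073 and 0.028 for all tested genes. Day 0 and day 3 libraries did not overlap for 9 factors in WT and 10 in KO, against 57.8% and 62.6% of all tested genes. The groups of the WT comparison and of the KO comparison share no library. Both comparisons came from the same fit with a shared replicate block, however, so they are not independent tests. Both also share libraries with the comparisons of KO with WT.

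**Figure D3:**
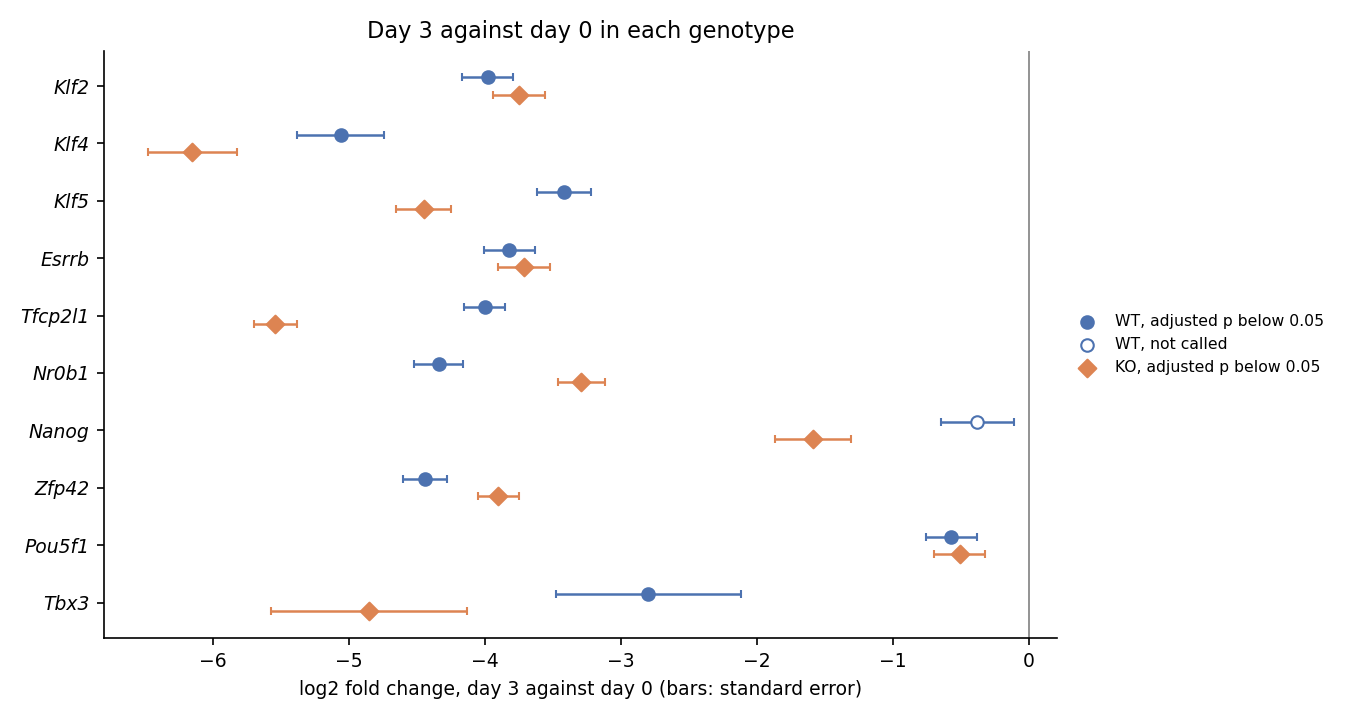
Log2 fold change of day 3 against day 0 for each factor in WT (circles) and KO (diamonds), with bars of 1 standard error and filled markers for an edgeR adjusted p below 0.05. The open circle is *Nanog* in WT (-0.38), *Pou5f1* lies near -0.5 in both genotypes, and *Klf4* in KO is lowest at -6.15.

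*Klf2*, *Klf4* and *Klf5* encode Krüppel-like zinc-finger factors that bind GC-rich elements and can in part replace each other in ESCs. *Klf5* (ENSMUSG00000005148; chromosome 14, 99298691 to 99315036, GRCm38) had 163, 178 and 165 CPM in replicates 1, 2 and 3 of WT at day 0 and 775, 838 and 766 CPM in the KO replicates. The groups were far apart. The change was 4.7-fold, a log2 fold change of 2.23 (SE 0.18, edgeR adjusted p = 0.000103). At day 3 *Klf5* had 11.7, 19.7 and 17.1 CPM in WT and 22.5, 50.4 and 40.3 CPM in KO. The groups were again apart, with a log2 fold change of 1.2 (SE 0.19, edgeR adjusted p = 0.00133). From day 0 to day 3 *Klf5* fell by 3.42 on the log2 scale in WT and by 4.45 in KO, and the KO effect was smaller at day 3 by 1.03 (SE 0.26, edgeR adjusted p = 0.0234). That difference was not called without the replicate block (adjusted p = 0.0679), nor without any 1 of WT replicates 2 or 3 of day 0, WT replicates 2 or 3 of day 3, KO replicate 1 of day 0 or KO replicate 3 of day 3 (adjusted p 0.0504 to 0.0618).

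*Klf2* (ENSMUSG00000055148; chromosome 8, 72319033 to 72321656) had 347, 254 and 254 CPM in WT and 287, 285 and 241 CPM in KO at day 0, and 14.7, 20.5 and 19 CPM in WT and 16.2, 23.5 and 20.6 CPM in KO at day 3. WT and KO libraries overlapped at both days. The log2 fold change of KO against WT was -0.08 (SE 0.17, edgeR adjusted p = 0.78) at day 0 and 0.15 (SE 0.18, edgeR adjusted p = 0.55) at day 3. *Klf2* fell to 6.34% of its day 0 mean in WT and to 7.44% in KO, log2 fold changes of -3.98 (SE 0.19) and -3.75 (SE 0.19).

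*Klf4* (ENSMUSG00000003032; chromosome 4, 55527143 to 55532466) had 376, 292 and 250 CPM in WT and 489, 489 and 339 CPM in KO ESCs. KO was higher in each of the 3 pairs of the same number, though the groups overlapped, and the log2 fold change of 0.51 (SE 0.26) was not called (edgeR adjusted p = 0.195). At day 3 its values were 6.48, 9.05 and 12 CPM in WT and 3.85, 8.3 and 6.45 CPM in KO, with KO lower in each pair. The log2 fold change was -0.58 (SE 0.31, edgeR adjusted p = 0.182). With a replicate block within each day both were called, at 0.52 (adjusted p = 0.00463) and -0.58 (adjusted p = 0.0119), as was their difference of -1.11 (adjusted p = 0.00238). In the fit of 12 libraries that difference was -1.09 (SE 0.4, edgeR adjusted p = 0.0957), and it was called without WT replicate 1 of day 0 (-1.4, adjusted p = 0.0399). WT replicate 3 of day 3 held the highest WT value of that day. Without it the day 3 log2 fold change was -0.18 (edgeR adjusted p = 0.71) and the difference was -0.69 (edgeR adjusted p = 0.258). In WT *Klf4* fell to 2.99% of its day 0 mean, a log2 fold change of -5.06 (SE 0.32), and in KO to 1.41%, a log2 fold change of -6.15 (SE 0.33). Among the 10 factors these were the largest decreases in each genotype.

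The balance among these Klf genes was followed per length. There *Klf2* made up 53.7 ± 1.99% of the summed level of the trio in WT ESCs, *Klf4* 34.8 ± 1.91% and *Klf5* 11.5 ± 2.06% (SD, n = 3). In KO ESCs the shares were 33.1 ± 0.608%, 32.3 ± 3.2% and 34.6 ± 2.97%, so that the trio stood at nearly equal levels per merged-exon length. The merged exons of *Klf5* span 5201 bases and its longest annotated transcript 3352. For *Klf2* both lengths are 1847 bases, and for *Klf4* they are 3049 and 3029. By transcript length the *Klf5* share would be larger in each group, so the near equality depends on the length used. The summed level was 287 ± 49 CPM per kb in WT and 443 ± 47.4 in KO. At day 3, when the sum was 15.9 ± 3.07 CPM per kb in WT and 20.2 ± 5.44 in KO, *Klf4* held 18.7 ± 3.19% in WT and 9.89 ± 1.03% in KO, and *Klf5* 19.4 ± 1.61% and 35.1 ± 4.44%. The *Klf5* share did not overlap between genotypes at either day. These shares derive from the same counts and carry no test of their own.

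**Figure D4:**
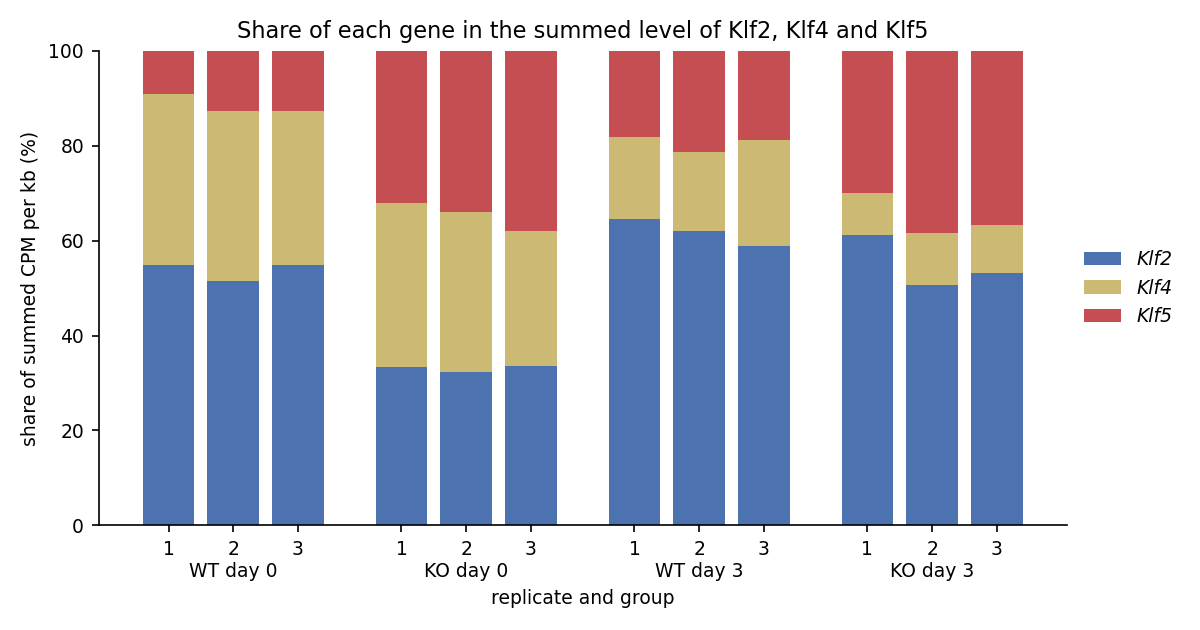
Stacked bars give the share, in percent, of *Klf2*, *Klf4* and *Klf5* in their summed CPM per kb, with 1 bar per library grouped by genotype and day. The *Klf5* segment spans 9.13% to 12.8% in WT ESCs and 32.1% to 37.9% in KO ESCs.

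*Esrrb* encodes an orphan nuclear receptor, *Tfcp2l1* a CP2-family factor downstream of LIF and *Nr0b1* (Dax1) an atypical nuclear receptor without a DNA-binding domain of the usual kind. *Nr0b1* (ENSMUSG00000025056; chromosome X, 86191764 to 86195947) had 115, 97 and 90 CPM in WT and 258, 215 and 224 CPM in KO ESCs. Its groups were apart, at a log2 fold change of 1.21 (SE 0.15, edgeR adjusted p = 0.000791). At day 3 it had 4.24, 5.15 and 5.57 CPM in WT and 19.5, 23.6 and 28.4 CPM in KO. The gap had widened to 4.77-fold, a log2 fold change of 2.26 (SE 0.17, edgeR adjusted p = 5.01e-05), and the increase of the KO effect by 1.05 (SE 0.23) was called (edgeR adjusted p = 0.0137). *Nr0b1* fell to 4.96% of its day 0 mean in WT and 10.3% in KO.

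*Tfcp2l1* (ENSMUSG00000026380; chromosome 1, 118627945 to 118685168) changed direction between the days. It had 477, 451 and 456 CPM in WT and 706, 908 and 897 CPM in KO ESCs, then 25.5, 30.4 and 31.5 CPM in WT and 12.4, 21.2 and 20.9 CPM in KO at day 3. Groups were apart at both days, with KO above WT at day 0 and below it at day 3. The log2 fold change was 0.84 (SE 0.13, edgeR adjusted p = 0.00216) at day 0 and -0.7 (SE 0.14, edgeR adjusted p = 0.00488) at day 3. The difference of -1.54 (SE 0.19, edgeR adjusted p = 0.00129) kept its sign and its call in all 12 fits that left out 1 library, from -1.73 to -1.37. Its decrease over the 3 days was -4 (SE 0.15) in WT and -5.54 (SE 0.16) in KO on the log2 scale.

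*Esrrb* (ENSMUSG00000021255; chromosome 12, 86361117 to 86521628) had 656, 537 and 454 CPM in WT and 899, 812 and 730 CPM in KO ESCs. The groups were apart by a narrow margin, with a log2 fold change of 0.57 (SE 0.17, edgeR adjusted p = 0.0426). This call was lost without any 1 of WT replicates 2 or 3 or KO replicates 1, 2 or 3 of day 0, WT replicate 2 of day 3 or KO replicates 2 or 3 of day 3 (adjusted p 0.0521 to 0.181). At day 3 *Esrrb* had 31.6, 43.6 and 41.8 CPM in WT and 49.6, 71.5 and 65.7 CPM in KO. The groups were apart, with a log2 fold change of 0.68 (SE 0.18, edgeR adjusted p = 0.0173) that was not called without WT replicate 1, KO replicate 2 or KO replicate 3 of that day (adjusted p 0.0575 to 0.0757). From day 0 to day 3 its log2 fold change was -3.82 (SE 0.19) in WT and -3.71 (SE 0.19) in KO, and the difference of 0.11 (SE 0.25) was not called (edgeR adjusted p = 0.813).

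*Pou5f1* and *Nanog*, the core factors, had the smallest changes from day 0 to day 3 among the 10 in both genotypes. *Pou5f1* (ENSMUSG00000024406; chromosome 17, 35506018 to 35510772), which encodes the POU-domain factor Oct4, had 680, 866 and 802 CPM in WT and 925, 1004 and 1028 CPM in KO ESCs. KO libraries were all above WT libraries, but the log2 fold change of 0.34 (SE 0.19) was not called (edgeR adjusted p = 0.24), though it was without WT replicate 3 of day 3 (0.34, adjusted p = 0.0256). At day 3 it had 630, 640 and 334 CPM in WT and 735, 696 and 655 CPM in KO, a log2 fold change of 0.4 (SE 0.19, edgeR adjusted p = 0.132). It was called with a replicate block within each day (0.44, adjusted p = 0.0272), and without WT replicate 3 of day 3 the value was 0.16 (adjusted p = 0.307). That replicate held the low WT value of day 3. *Pou5f1* fell to 68.3% of its day 0 mean in WT, a log2 fold change of -0.57 (SE 0.19, edgeR adjusted p = 0.0257) that was -0.33 without WT replicate 3 of day 3 (adjusted p = 0.0241), and to 70.5% in KO, a log2 fold change of -0.51 (SE 0.19, edgeR adjusted p = 0.0404). The WT call was lost without WT replicate 2 or 3 of day 0 (adjusted p = 0.0756 and 0.0999), and the KO call without WT replicate 2 of day 0 or any of the 6 KO libraries (adjusted p 0.0518 to 0.179). Of the merged *Pou5f1* exons, 14.1% overlap the antisense gene *Gm19553*, and the strand setting of the counting was not given in the sources used here.

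*Nanog* (ENSMUSG00000012396; chromosome 6, 122707489 to 122714633), a homeodomain factor, had 377, 317 and 319 CPM in WT and 463, 586 and 468 CPM in KO ESCs. The groups did not overlap, and the log2 fold change of 0.58 (SE 0.27) was not called (edgeR adjusted p = 0.165). At day 3 WT had 339, 348 and 126 CPM and KO 167, 153 and 178 CPM. A pair of WT libraries lay above all KO libraries and WT replicate 3 below them, and the log2 fold change of -0.64 (SE 0.28) was not called (edgeR adjusted p = 0.107). With no filter on low counts it was -0.65 and just called (adjusted p = 0.0485). Without WT replicate 3 it was -1.01 (adjusted p = 0.00106), and the day 0 change of 0.58 was called as well (adjusted p = 0.00685). From day 0 to day 3 *Nanog* in WT gave a log2 fold change of -0.38 (SE 0.27, edgeR adjusted p = 0.264), or -0.03 without replicate 3 of day 3 (adjusted p = 0.871). In KO it fell to 32.8% of its day 0 mean, a log2 fold change of -1.59 (SE 0.28, edgeR adjusted p = 0.000792). The difference between the days in the KO effect was -1.21 (SE 0.39, edgeR adjusted p = 0.0607). It was called with a replicate block within each day (-1.16, adjusted p = 0.0428) and without WT replicate 3 of day 3 (-1.59, adjusted p = 0.00118).

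*Zfp42* (ENSMUSG00000051176; chromosome 8, 43295063 to 43306980), a zinc-finger gene related to *Yy1* and a common reporter of the naive state, had 560, 468 and 371 CPM in WT and 639, 498 and 504 CPM in KO ESCs. These groups overlapped, and the log2 fold change of 0.23 (SE 0.13) was not called (edgeR adjusted p = 0.259). At day 3 it had 27.1, 16.2 and 21.8 CPM in WT and 39.2, 30.2 and 39.7 CPM in KO, which did not overlap. There the log2 fold change was 0.76 (SE 0.14, edgeR adjusted p = 0.00323). *Zfp42* fell by 4.44 on the log2 scale in WT and by 3.9 in KO, to 4.65% and 6.65% of the day 0 means. The KO effect was higher at day 3 by 0.53 (SE 0.19, edgeR adjusted p = 0.0907), and this was called with a replicate block within each day (0.52, adjusted p = 0.0134) and without WT replicate 3 of day 0 (0.68, adjusted p = 0.0315). Of the 100-base words in its longest annotated transcript, 2.53% also occur in *Zfp42-ps1*, and a read from such a word aligns to both and is left out of the count.

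*Tbx3* (ENSMUSG00000018604; chromosome 5, 119670669 to 119684724) encodes a T-box factor that sustains ESCs and is also made in early mesoderm and endoderm. It had 154, 163 and 135 CPM in WT and 300, 394 and 325 CPM in KO ESCs, with the groups apart. The log2 fold change of 1.14 (SE 0.6) was not called in the fit of 12 libraries (edgeR adjusted p = 0.217), and was called at 1.16 with a replicate block within each day (adjusted p = 0.0488) and at 1.15 without WT replicate 3 of day 3 (adjusted p = 0.00117). At day 3 WT had 6.39, 9.1 and 71.6 CPM and KO 7.7, 16.5 and 13 CPM. The high WT value came from replicate 3, which also had 15 CPM of *Tbx2*, the paralog of *Tbx3*, against 0.187 and 0.241 CPM in replicates 1 and 2. The log2 fold change of KO against WT was -0.92 (SE 0.68, edgeR adjusted p = 0.337) with that library and 0.72 (adjusted p = 0.0362) without it, so that its direction rested on 1 library. In WT *Tbx3* fell by 2.8 on the log2 scale (SE 0.68, edgeR adjusted p = 0.00604), or by 4.37 without replicate 3 of day 3, and its log2 fold change in KO was -4.85 (SE 0.72, edgeR adjusted p = 0.000275). The difference between the days in the KO effect was -2.05 (SE 0.91, edgeR adjusted p = 0.158), or -0.44 without that library (adjusted p = 0.314).

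Beside the factors, 20 further genes of the pluripotency network were counted. *Sox2*, the third core gene and the partner of Oct4 on composite elements, had 464, 406 and 419 CPM in WT and 436, 379 and 398 CPM in KO ESCs, and these overlapped (log2 fold change -0.09, SE 0.06, edgeR adjusted p = 0.376). At day 3 it had 74.2, 62.6 and 61.2 CPM in WT and 193, 160 and 151 CPM in KO, with each KO library above each WT library. The log2 fold change there was 1.35 (SE 0.07, edgeR adjusted p = 3.6e-06), and the decrease from day 0 was -2.71 (SE 0.07) in WT and -1.27 (SE 0.07) in KO. Of the 20 genes, 4 were higher and 1 was lower in KO at day 0, where 20.4% of all tested genes were called. At day 3, where 30.9% were called, 11 of the 20 were higher and 4 lower. Their median log2 fold change was 0.15 at day 0 and 0.74 at day 3, against 0.57 and 0.28 for the 10 factors, and no test compared the lists. Without WT replicate 3 of day 3 the day 3 medians lay closer, at 0.62 for the network genes and 0.5 for the factors. At day 0 the range ran from *Dppa3* (Stella), a maternal and germline factor, at -3.51 (SE 0.26, edgeR adjusted p = 6.74e-05) to *Tet2*, a 5-methylcytosine dioxygenase, at 1.46 (SE 0.38, edgeR adjusted p = 0.0232). The *Tet2* call was lost without the replicate block (adjusted p = 0.0589) and without WT replicate 2 or 3 or KO replicate 1 or 3 of day 0 (adjusted p 0.0707 to 0.118). At day 3 *Dppa3* was again lowest (-1.51, SE 0.29, edgeR adjusted p = 0.00427), at low means of 2.03 CPM in WT and 0.686 in KO. *Utf1*, a chromatin-bound factor of ESCs, was highest. *Utf1* had 49.7, 75.3 and 75.6 CPM in WT and 242, 319 and 261 CPM in KO, a log2 fold change of 2.06 (SE 0.12, edgeR adjusted p = 9.73e-06).

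From day 0 to day 3, 17 of the 20 network genes fell in WT, against 25.5% of all tested genes. In KO 16 fell, against 27.2%, and 1 rose. The largest decreases were those of *Tcl1*, a coactivator of Akt, in WT (-4.31, SE 0.21, edgeR adjusted p = 8.04e-07) and of *Tet2* in KO (-4.02, SE 0.43, edgeR adjusted p = 3.26e-05). *Lin28a*, a let-7 inhibitor, was at the other end, with 0.27 in WT (SE 0.19, edgeR adjusted p = 0.263) and a rise of 0.83 in KO (SE 0.19, edgeR adjusted p = 0.00455). The KO effect was higher at day 3 than at day 0 for 8 of the 20 and lower for 2, where 15.5% of all tested genes were called. At the ends were *Utf1* at 2.03 (SE 0.16, edgeR adjusted p = 0.000243) and *Tet2* at -1.75 (SE 0.54, edgeR adjusted p = 0.054). *Tet2* was called there with a replicate block within each day (adjusted p = 0.000234), with no filter on low counts (adjusted p = 0.00879) and without WT replicate 1 of day 0 or of day 3 (adjusted p = 0.0184 and 0.0147). Also counted were 10 formative and primed genes, a class that is switched on as cells leave the naive state. From day 0 to day 3, 6 of them rose in WT, against 30.7% of all tested genes, while *Dnmt3a*, *Lef1*, *Sox3* and *Etv4* were not called. In KO 9 rose, against 29.4%, and *Etv4* fell. At day 0, 9 were lower and *Etv4* was higher in KO, with a median log2 fold change of -1.6, where 20.4% of all tested genes were called. At day 3, where 30.9% were called, 4 of the 10 were higher and 1 lower in KO. The day 3 counts were 4 higher and 3 lower without WT replicate 3 of that day, where 22.1% of all tested genes were called. With a replicate block within each day they were 5 higher and 4 lower, where 46.9% were called. Sequence shared with copies was searched for the 10 factors only.

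**Figure D5:**
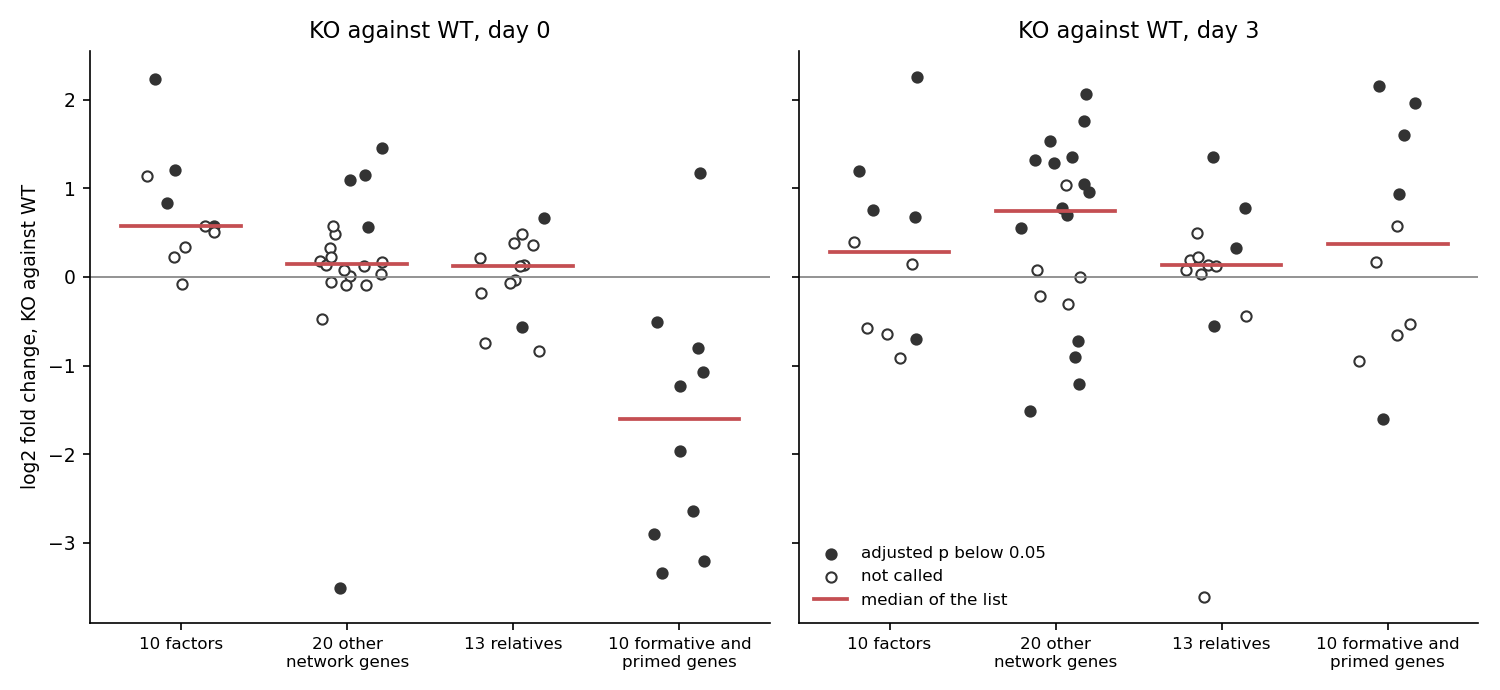
Log2 fold change of KO against WT at day 0 and day 3 for the 10 factors, 20 other network genes, 13 relatives and 10 formative and primed genes, with 1 point per gene spread sideways for sight only, filled at an edgeR adjusted p below 0.05, and a red line at each list's median. Medians of the network genes lie at 0.15 and 0.74 and those of the formative and primed genes at -1.6 and 0.37.

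Relatives of the factors were counted in the same way. Of 13 related genes, Klf genes outside the trio together with *Esrra*, *Tfcp2*, *Ubp1*, *Tbx2* and *Yy1*, 1 was higher and 1 lower in KO at day 0, 3 were higher and 1 lower at day 3, and 8 fell and 1 rose from day 0 to day 3 in WT. Of all tested genes 20.4%, 30.9% and 56.2% were called in these comparisons. Without WT replicate 3 of day 3, 1 relative was called at day 0 and 2 at day 3, all as higher in KO, and 10 fell and 1 rose in WT. In that fit 22.6%, 22.1% and 51.3% of all tested genes were called. The relatives' median log2 fold change over the 3 days was -0.52 in WT and -0.43 in KO. *Tfcp2*, the paralog of *Tfcp2l1*, rose from 12.2 ± 2.02 to 21.4 ± 0.825 CPM in WT (SD, n = 3), a log2 fold change of 0.82 (SE 0.14, edgeR adjusted p = 0.000635). It also rose in KO by 0.45 (SE 0.14, edgeR adjusted p = 0.0174), and was lower in KO than in WT at day 3, at -0.55 (SE 0.13, edgeR adjusted p = 0.0122). The day 3 call was lost without WT replicate 3 or KO replicate 2 of that day (adjusted p = 0.0708 and 0.0635), and the KO rise without KO replicate 1 or 3 of either day (adjusted p 0.0559 to 0.079). *Klf12*, a Klf-family repressor, was higher in KO at day 0 (log2 fold change 0.67, SE 0.14, edgeR adjusted p = 0.00775) and at day 3 (1.35, SE 0.14, edgeR adjusted p = 0.000172).

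Markers of other cells were read in the same libraries. The 6 markers of undifferentiated cells other than the factors, all of them in the network list too, summed to 2492 to 2638 CPM in WT and 2435 to 2735 CPM in KO at day 0. At day 3 they summed to 1325 to 1981 CPM in WT and 1668 to 1878 CPM in KO, with the lowest value in WT replicate 3. Of 10 fibroblast markers, 9 passed the filter, and their summed level was 86.6, 277 and 148 CPM in WT and 137, 381 and 236 CPM in KO at day 0. These sums overlapped between the genotypes and were higher in KO in each pair of the same number. At day 0 edgeR called 0 of the 9 in either direction, with 3 higher in KO at an unadjusted p below 0.05, while limma-voom called 0 and DESeq2 called 1. When the replicate number was a block inside a day, 4 of the 9 were called as higher in KO, where 34.8% of all tested genes were called. At day 3 the sums were 51.7 to 122 CPM in WT and 41.3 to 84.8 in KO, and 6 of the 9 were called, against 30.9% of all tested genes. *Col3a1* (log2 fold change 1.47), *Thy1* (0.77) and *Dcn* (2.51) were higher in KO, and *Fbn1* (-2.03), *Prrx1* (-2.43) and *Twist2* (-2.5) were lower. Without WT replicate 3 of day 3, 2 were called as higher and 2 as lower, where 22.1% of all tested genes were called. The part of the fibroblast markers in the differences of the factors was not tested. The 12 markers of primitive streak, mesoderm and endoderm summed to between 1262 and 1835 CPM in WT at day 3 and to between 83 and 163 in KO, and 11 of the 12 were lower in KO at that day, against 16.7% of all tested genes. This difference stands beside every KO effect of day 3 given above, and its part in them was not tested. At day 0 the same 12 markers summed to 66.6 to 191 CPM in WT and 132 to 183 in KO. Of them *T* (log2 fold change -5.49, SE 1.43) and *Lhx1* (-6.66, SE 1.62) were lower in KO at day 0 and *Bmp4* (2.48) was higher, where 20.4% of all tested genes were called. WT libraries spread widely, from 4.64 to 77.4 CPM for *T* and from 0.655 to 13.9 for *Lhx1*. KO libraries had at most 0.919 and 0.102 CPM, so the size of both changes is uncertain. With limma-voom 0 of the 12 were called as lower. The part of these day 0 differences in the KO effects of day 0 was not tested either.

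Profiles over the 12 libraries were compared as a description. The mean profile of the factors, each scaled to its own spread on the log2 scale, was most like those of *Pcolce*, *Vwa3b*, *Jam2*, *Cobl* and *Sox15*, with Pearson's r of 0.994 to 0.995. Among the factors themselves r with that mean was 0.991 for *Esrrb* and lowest for *Nanog* (0.794) and *Pou5f1* (0.762). *Tbx3* was most like *Tfpi* (0.994), *Fzd5* (0.987) and *Notch1* (0.986). All 12 points share the change from day 0 to day 3, and the values of a library share its depth.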

How the data were processed

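Polyadenylated RNA of 12 samples was sequenced as single reads. The deposited values are whole-number read counts per gene, not normalized. The authors used cutadapt 1.3 for trimming, STAR 2.4.2a for alignment to GRCm38 and htseq-count (HTSeq 0.6.1) for counting. Reads that align to several places were left out of gene counts and made up 36.5% to 44.1% of the alignments listed, which lowers the counts of genes that have close copies. Reads that overlap several genes are also left out.

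Of 46517 gene IDs, 46005 matched GENCODE M21. The 15673 genes above 1 CPM in 1 or more samples entered the fit (edgeR 4.0.16, R 4.3.3), with TMM normalization, a term for each of the 4 groups and the replicate number as a block, as the study's methods add a batch factor to 1 model. A gene was called at a Benjamini-Hochberg adjusted p below 0.05, with no fold minimum. CPM values are TMM-scaled and given as mean ± SD, and the SE of a log2 fold change was derived from edgeR's F statistic. The scripts were tested on simulated data. Tables were made with pandas 2.3.3 in Python 3.11.15.

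Labels number the replicates 1 to 3 in each group. Within a day, deviations from the group mean correlated between WT and KO libraries of equal number (r 0.289 to 0.692 in 6 pairs), so the numbers pair samples within a day. Between days the same number gave r of -0.205 to 0.0727, so the numbers did not pair samples across days. The block of the main fit, shared by both days, therefore does not match the pairing found. A block within each day, which follows that pairing, was an alternative. The others were no block, limma-voom (limma 3.58.1), DESeq2 1.42.0, RLE normalization, only the 6 samples compared, no filter on low counts, and each library left out in turn. Replicates of a group differed by a chi-square of 10.6 to 50.8 per gene, more than sampling noise.

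The 10 factors and the gene lists were chosen with earlier results of these data known. All 10 factors are named in every comparison. Of 20 other network genes the text names *Sox2* and those with the highest and the lowest log2 fold change in each comparison, and of 13 relatives up to 4. *Hand1* and the fibroblast markers were named after their values were seen. Protein sequences and isoforms were not analysed here.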

Additional observations from a re-analysis of the deposited data

Results flagged for a closer look

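The KO effect on *Tfcp2l1* differed between the days by -1.54 on the log2 scale (day 3 minus day 0), with KO above WT at day 0 (0.84) and below it at day 3 (-0.7), and was called by edgeR's quasi-likelihood test of the difference (adjusted p = 0.00129). The KO effect on *Klf5* was smaller at day 3 by 1.03, a difference of -1.03 with an adjusted p of 0.0234, and that on *Nr0b1* was larger by 1.05 (adjusted p = 0.0137). The *Klf5* call was lost without the replicate block, and without any 1 of the libraries named for it above (edgeR adjusted p 0.0504 to 0.0618).

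Among the other network genes named, the test of the difference between the days passed for *Sox2* at 1.43 (adjusted p = 0.000127 in edgeR), whose KO effect was -0.09 at day 0 and 1.35 at day 3, and for *Utf1* at 2.03 (adjusted p = 0.000243), with 0.03 and 2.06. *Dppa3* passed at 2.01 (adjusted p = 0.00899), where KO was lower by less at day 3 (-1.51) than at day 0 (-3.51). Its mean fell from 20 to 2.03 CPM in WT, and from 1.78 to 0.686 CPM in KO, which was already low at day 0. The KO libraries of day 3 held 14, 10 and 19 reads of it, so the smaller day 3 effect rests on few reads. Of the relatives named, *Klf12* passed at 0.68 (adjusted p = 0.0399), with 0.67 and 1.35, and that call was lost without any 1 of 11 libraries, all but KO replicate 1 of day 3 (adjusted p 0.052 to 0.115). Of all tested genes 15.5% passed this test.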

How the results depend on the processing

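With a replicate block within each day, 5447 genes were called at day 0, 7347 at day 3 and 4889 for the difference between the days in the KO effect, against 3201, 4846 and 2436, and 6 factors against 3 for the difference. Fits with only the 6 libraries compared called 5356 genes and 9 factors at day 0, called *Klf4* at day 3 (adjusted p = 0.0455) and lost *Pou5f1* in WT over the 3 days (adjusted p = 0.059) and *Tfcp2* in KO (adjusted p = 0.0646). DESeq2 and the fit with no filter on low counts called 5 factors for the difference, with *Klf4* and *Nanog* added, and with no filter the difference for *Klf12* was not called (adjusted p = 0.0879). The fit without the replicate block kept 49 of 50 values of the factors on their side of the threshold, and the block within each day changed no call of a factor other than those given above. RLE normalization and limma-voom changed no call and no direction of the factors. Over the fits that each left out 1 library, 1717 to 3480 genes and 3 to 7 factors were called at day 0, 2907 to 5079 genes and 4 to 7 factors at day 3, and 1391 to 2397 genes and 2 to 4 factors for the difference. The counts for day 3 against day 0 were 7257 to 8684 genes and 8 to 9 factors in WT and 7499 to 9056 genes and 9 to 10 factors in KO. Directions that turned in such fits were those of *Klf2* at day 0 (-0.23 to 0.17), *Tbx3* at day 3 (-1.52 to 0.72), and the difference for *Klf2* (-0.01 to 0.39), *Esrrb* (-0.12 to 0.27) and *Pou5f1* (-0.18 to 0.25), and the cause was not tested. A library left out of 1 group leaves its partner unpaired. Low values at day 3, such as 3.85 CPM of *Klf4*, rest on fewer reads than those of day 0.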
